A study of Rattus norvegicus with 22 samples.

Results

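Left kidneys of 6 rats given human adipose-derived stromal cells (ASC) intravenously (i.v. ASC) were compared with those of 6 untreated rats. All genes with enough reads were used, and the comparison was made gene by gene and then separately for the genes whose level followed that of Upk3a. Upk3a encodes uroplakin 3a, a membrane protein of the urothelium, the epithelium that lines the renal pelvis. The 12 rats are part of 22, which also hold 6 rats given ASC into the peritoneum (i.p. ASC) and 4 given the medium conditioned by ASC (ASC-derived CM). Of the 12867 genes tested, 45 followed Upk3a, with Upk3a itself counted among them, and 12822 did not.

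All rats, untreated ones included, were male PKD/Mhm (Cy/+) rats, heterozygous for the Cy mutation of Anks6, and were 8 months old at sampling. Treatment was given once per month for 6 months. The untreated rats carry the same mutation, so that the comparison is between cystic kidneys and holds no healthy kidney. The cells were of human origin and were given to rats. Reads were assigned to rat genes, and the injected cells themselves were not analysed here. Each library came from 1 rat, and rats are named here by their number in the sample labels, which are 1, 12, 18, 22, 23 and 24 for untreated and 3, 8, 9, 10, 13 and 14 for i.v. ASC.

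The urothelium of the renal pelvis and the papilla is a thin layer beside the inner medulla, and its surface is covered by plaques of the uroplakins. Its basal cells carry the keratins 5, 14 and 15 and the transcription factor p63. A piece of kidney may hold cortex, with glomeruli and proximal tubules, medulla, with collecting ducts, and pelvis, so the regions in the piece bear on its RNA. In RNA from whole tissue, fewer cells of a type and less RNA per cell cannot be told apart.

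Total counts per rat ran from 12454983 to 14552261 in untreated rats, with a median of 12932207, and from 12195682 to 14734772 in i.v. ASC rats, with a median of 12715533. Levels are given as TPM, an abundance corrected for transcript length and scaled to the total of the library. Differences are log2 fold changes of i.v. ASC over untreated, with their standard error (SE), from edgeR's quasi-likelihood test on the counts. This test called 0 of the 12867 genes at an adjusted p-value below 0.05 (0%, Benjamini-Hochberg adjustment), and its smallest adjusted p-value was 0.142. Before adjustment 1133 genes lay below a p-value of 0.05, of which 490 (3.81% of the genes tested) were higher and 643 (5%) lower in i.v. ASC rats. With both the scale and the test changed (limma-trend on log2(TPM + 1)) the split was 121 higher and 1206 lower, and the median difference over all genes was -0.12 in place of -0.01. Where a list is given under TPM scaling, its count of higher genes is also given relative to that median. DESeq2 called 28 of 15266 genes (0.183%), 24 higher and 4 lower. Anks6 itself did not differ beyond the spread between rats. Its TPM was 15 to 24.5 in untreated rats, with a median of 20.2, and 14.3 to 26.3 in i.v. ASC rats, with a median of 17.5 (log2 fold change 0.05, SE 0.14, adjusted p = 0.9 from edgeR).

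Sequences are shown for 3 of the 4 uroplakin genes that lead the genes following Upk3a, since these genes moved together over the rats. They are RefSeq promoters of the assembly GRCr8, from 250 bases before to 50 bases after the start of the gene, and Upk2 had no entry. A promoter was at hand for 32 of the 45 genes. Capitals mark matches on either strand to AACNGGTT, a Grainyhead motif, TGTTTAC, a forkhead motif, AGGTCA, a nuclear receptor half-site, and AGGAAG, an ETS motif. These families were chosen because Grhl3, Foxa1, Pparg, Elf5 and Ehf are among the 45 genes.
Upk1a, chr1:94997531-94997830, minus strand: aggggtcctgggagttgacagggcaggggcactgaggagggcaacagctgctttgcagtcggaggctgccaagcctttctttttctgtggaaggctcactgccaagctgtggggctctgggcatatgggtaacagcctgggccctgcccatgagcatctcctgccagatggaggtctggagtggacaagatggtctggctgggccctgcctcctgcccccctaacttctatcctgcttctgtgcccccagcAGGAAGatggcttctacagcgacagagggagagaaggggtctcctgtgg
Upk1b, chr11:75459131-75459430, plus strand: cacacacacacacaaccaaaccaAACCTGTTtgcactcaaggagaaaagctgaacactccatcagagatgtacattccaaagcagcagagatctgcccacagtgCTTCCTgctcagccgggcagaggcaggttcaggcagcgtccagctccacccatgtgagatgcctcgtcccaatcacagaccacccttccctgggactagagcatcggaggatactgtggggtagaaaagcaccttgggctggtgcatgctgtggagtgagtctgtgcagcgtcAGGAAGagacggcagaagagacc
Upk3a, chr7:118014540-118014839, plus strand: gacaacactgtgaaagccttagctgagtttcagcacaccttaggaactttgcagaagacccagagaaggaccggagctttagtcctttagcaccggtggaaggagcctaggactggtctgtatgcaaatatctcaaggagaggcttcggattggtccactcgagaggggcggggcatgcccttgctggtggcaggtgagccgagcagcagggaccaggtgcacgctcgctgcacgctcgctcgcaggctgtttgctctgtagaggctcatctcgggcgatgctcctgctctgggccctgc
The promoter of Upk1a held AGGAAG, that of Upk1b held AGGAAG on both strands and AACNGGTT on the reverse strand, and that of Upk3a held none of the motifs. Of the 32 promoters, 16 (50%) held AGGAAG, against 34.5% of the 10393 promoters of tested genes. The motif AACNGGTT was found in 2 of 32 (6.25%, against 1.62%), AGGTCA in 1 (3.12%, against 12.4%) and TGTTTAC in 0 (against 2.29%). Matches of such short motifs are a description of the letters only.

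Upk3a was high in 3 of the 6 i.v. ASC rats. Its TPM was 68.3 in rat 3, 130 in rat 9 and 22.3 in rat 13, then 3.35 in rat 10 and 0.26 in each of rats 8 and 14. In untreated rats it ran from 0 to 3.3, with a median of 0.139, and the highest value was that of rat 23. The highest value among the i.p. ASC rats was 0.478 and among the ASC-derived CM rats 0.477. The groups overlapped, because rats 8 and 14 lay within the range of the untreated rats and rat 10 just above it. The log2 fold change was 5.82 (SE 1.19, adjusted p = 0.169 from edgeR, 0.0035 from DESeq2), with only 33 counts over the 6 untreated rats. DESeq2 gave a log2 fold change of 5.86, and other prior counts were not tried.

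A gene was taken to follow Upk3a when the Pearson correlation of log2(TPM + 1) with that of Upk3a over the 22 rats, after the mean of each group was taken away, was at least 0.7. The points share the 4 groups, and rats 3, 9 and 13 give nearly all of the variation in Upk3a. A gene that is near 0 in untreated rats and varies among the i.v. ASC rats must then be higher in this group, so the direction of the 45 genes, all of them higher, supports nothing. Just inside the limit were Uchl1 and Ehf at 0.71 and Sdc1 at 0.706, and just outside were Wnt4 at 0.699, Mttp at 0.696 and Ppp1r3c at 0.692. Of the 45 genes, 41 had a p-value below 0.05, against 1133 of all 12867 genes tested. Of the 20 smallest p-values of the comparison 15 were theirs. In 41 of the 45 genes rats 3, 9 and 13 were all above the other 9 rats of both groups. Rat 9 was the highest i.v. ASC rat for 38 genes, rat 13 for 5 and rat 3 for 2. The genes were chosen for likeness to Upk3a, so these counts largely restate the rule and support nothing.

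**Figure D1:**
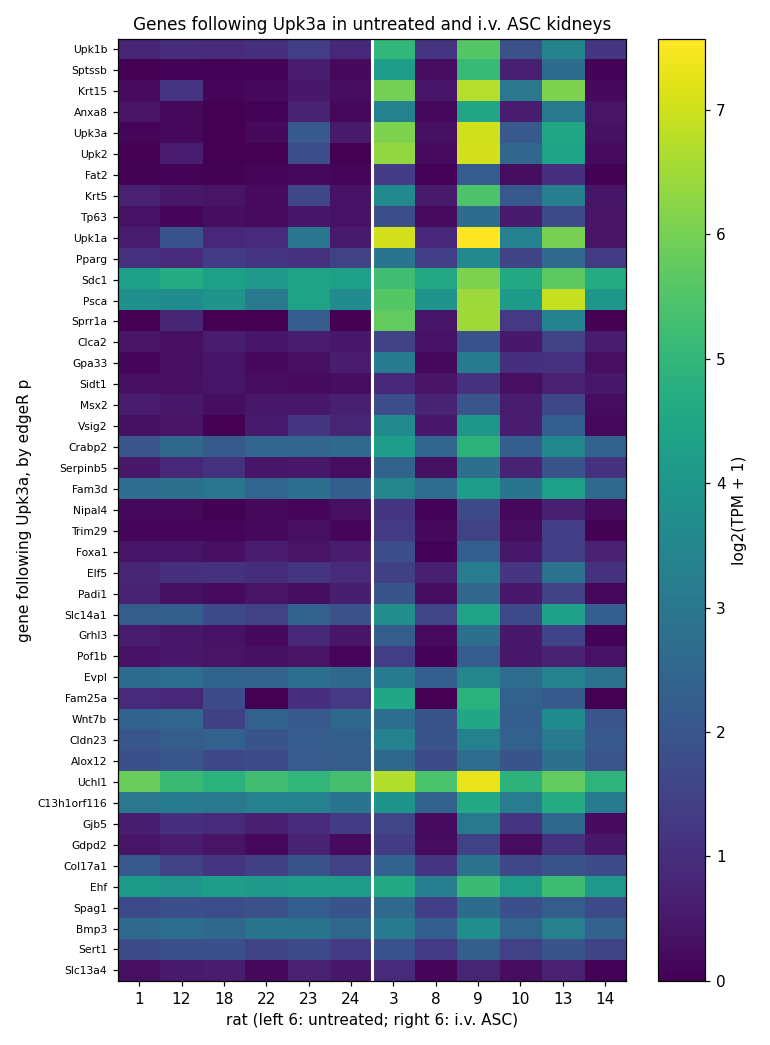
Levels of the 45 genes that follow Upk3a, as log2(TPM + 1), with 1 row per gene in the order of the edgeR p-value and 1 column per rat, the 6 untreated rats left of the white line and the 6 i.v. ASC rats right of it. The columns of rats 3, 9 and 13 are brighter than the others from Upk1b, the gene with the smallest p-value, through most of the rows.

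The other uroplakins had the same order of rats. Upk1a and Upk1b encode the tetraspanins that pair with uroplakins 2 and 3a on the way to the surface. Upk1b ran from 0.713 to 1.6 TPM in untreated rats, with a median of 0.898, and from 1.22 to 46.9 in i.v. ASC rats, with a median of 6.06 (log2 fold change 4.12, SE 0.76, adjusted p = 0.142 from edgeR). Upk1a ran from 0.459 to 6.9 TPM in untreated rats and from 0.321 to 189 in i.v. ASC rats, with medians of 0.865 and 36.8 (log2 fold change 5.14, SE 1.10, adjusted p = 0.169 from edgeR). Upk2 was at 0 TPM in 4 of 6 untreated rats, at most 2.53 in rat 23, and at 80.6, 133 and 20.1 in rats 3, 9 and 13. In all these genes rats 8 and 14 stayed within or close to the untreated range, and rat 10 lay above it at 2.68 TPM for Upk1b, 9.11 for Upk1a and 4.7 for Upk2.

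Genes of the basal layer followed as well. Krt15, a keratin of basal epithelial cells, ran from 0.0671 to 1.22 TPM in untreated rats, with a median of 0.184, and from 0.147 to 106 in i.v. ASC rats, with a median of 34.7. It had the largest log2 fold change of the 45 genes, 6.90 (SE 1.34, adjusted p = 0.142 from edgeR, 0.000327 from DESeq2), on 33 counts in the untreated rats. Krt5 was at 11, 42.7 and 8.39 TPM in rats 3, 9 and 13, at 3.24 in rat 10 and at most 2.06 in the other 8 rats. Tp63, which encodes p63, was at 2.55, 5.37 and 2.27 TPM in rats 3, 9 and 13 and at most 0.467 in the others (log2 fold change 3.01, SE 0.64, adjusted p = 0.169 from edgeR). Krt14, the partner of keratin 5, was below the count filter of edgeR. It was at 3.76, 7.98 and 7.41 TPM in rats 3, 9 and 13 and at most 0.601 in the others (log2 fold change 4.49, adjusted p = 0.00111 from DESeq2). Krt15, Krt5 and Tp63 were chosen by their correlation with Upk3a, whose variation comes nearly all from rats 3, 9 and 13. Their high levels in these 3 rats are thus part of the rule and support nothing. Krt14 was named because DESeq2 called it.

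Transcription factors known from urothelial differentiation were among the 45 genes. Pparg, the nuclear receptor that drives fat cell and urothelial differentiation, was at 6.53, 11.1 and 5.02 TPM in rats 3, 9 and 13, at 1.44 to 1.91 in rats 8, 10 and 14, and at 0.897 to 1.84 in untreated rats. Its log2 fold change was 1.92 (SE 0.41, adjusted p = 0.169 from edgeR, 0.0035 from DESeq2). On the list of 24 tested PPAR receptors and targets, Pparg was the 1 gene that followed Upk3a, and 12 of the 24 were higher, with a median log2 fold change of -0.02. Grhl3, of the Grainyhead family, was at 3.68, 5.93 and 1.86 TPM in these 3 rats and at most 0.784 in the other 9, and Foxa1, a forkhead factor, at 2.45, 3.81 and 1.67 TPM against at most 0.523. Msx2, a homeobox factor, was at 2.43, 3 and 2.12 TPM against at most 0.694.

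Further members of the 45 genes act in membranes and junctions. Sptssb, a small subunit of serine palmitoyltransferase, had a log2 fold change of 6.40 (SE 1.23, adjusted p = 0.142 from edgeR) on 15 counts in untreated rats, and Anxa8, an annexin, of 5.06 (SE 0.98, adjusted p = 0.142). Fat2, a large cadherin, was at 1.56, 3.57 and 1.09 TPM in rats 3, 9 and 13 and at most 0.218 in the others. Sdc1, which encodes the heparan sulphate proteoglycan syndecan 1, differs from these in being well expressed in untreated kidneys, with 16.1 to 24.6 TPM and a median of 18.7. It was at 22.7 to 67.1 TPM in i.v. ASC rats, with a median of 30.7 (log2 fold change 1.08, SE 0.25, adjusted p = 0.259 from edgeR, 0.00959 from DESeq2). Psca, a small surface antigen of the prostate and the urothelium, was highest in rat 13 at 118 TPM, against 46.9 in rat 3, 87.5 in rat 9 and 7.27 to 19.7 in the other 9 rats.

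Single rats moved the fold changes of these genes. Without rat 9 the log2 fold change was 4.83 for Upk3a, 3.33 for Upk1b, 4.45 for Upk1a, 5.42 for Upk2, 6.31 for Krt15, 2.99 for Krt5, 2.41 for Tp63, 5.36 for Sptssb, 4.14 for Anxa8, 3.41 for Fat2, 2.68 for Vsig2 and 1.21 for Elf5. Without untreated rat 23 it was 7.73 for Upk3a, 8.48 for Upk2, 6.06 for Upk1a, 5.04 for Krt5, 7.41 for Sptssb and 5.72 for Anxa8, and without untreated rat 12 it was 7.785 for Krt15.

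On the list of urothelial markers, 14 of 22 genes were tested, 13 of them were higher and 11 had a p-value below 0.05, all higher, with a median log2 fold change of 2.74. Over all genes tested 47.5% were higher and the median was -0.01. Of the 14 genes 10 followed Upk3a, and they are part of what the rule chose. Genes near 0 in untreated rats passed the count filter mainly through the high i.v. ASC rats. Upk2, for instance, had 18 counts over the untreated rats and 1408 over the i.v. ASC rats. The shares of higher genes and of low p-values on this list are thus partly set by the filter. With rats 3, 9 and 13 left out, 25 of the 45 genes that follow Upk3a were higher, their median log2 fold change was 0.06 and 3 had a p-value below 0.05. These were Upk1b, with a log2 fold change of 0.90, Krt15, with 2.87, and Slc13a4, a sulphate transporter named after its values were seen, with -1.59. Above the median of the untreated rats lay 34 of the 45 genes in rat 10, 22 in rat 14 and 18 in rat 8.

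**Figure D2:**
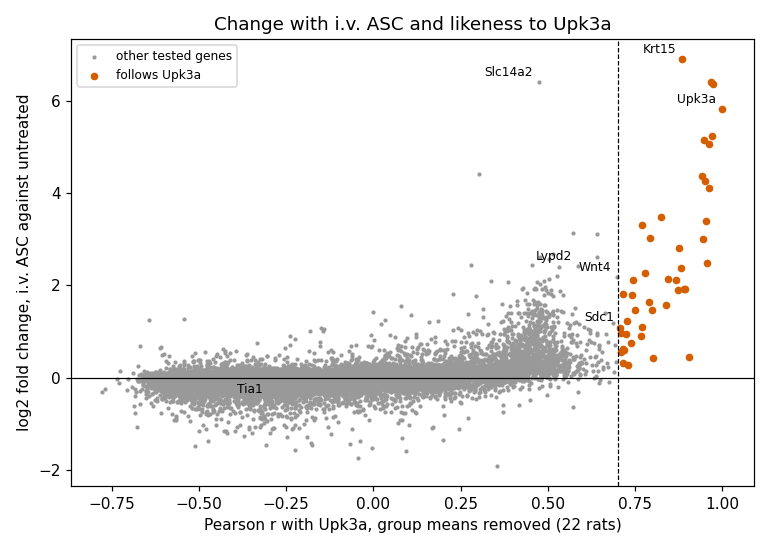
Log2 fold change of i.v. ASC over untreated against the Pearson correlation with Upk3a (22 rats, group means taken away), with 1 point per tested gene. The 45 genes right of the dashed line at 0.7 (orange) are all above 0, and Slc14a2, with a fold change of 6.40 and a correlation of 0.473, stands apart on the left of it.

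The remaining genes numbered 12822, of which 1092 had a p-value below 0.05, with 449 higher and 643 lower. Their smallest adjusted p-value was 0.212 (edgeR), that of Tia1. Of the 28 genes called by DESeq2, 16 followed Upk3a. These were Upk1a, Upk1b, Upk3a, Krt5, Krt15, Tp63, Pparg, Sptssb, Anxa8, Fat2, Sdc1, Psca, Vsig2, Clca2, Gpa33 and Serpinb5, and the last 4 had log2 fold changes of 3.46, 1.91, 3.58 and 2.29. A further 8 were tested by edgeR and did not follow, and 4 were below the count filter of edgeR. The 8 were Wnt4, Thrsp, Tnni2, Lypd2 and Slc14a2, which rose, and Tia1, Lama1 and Magee1, which fell, by DESeq2. The other 4 were Krt14, Bcas1 and Tmem54, which were high in rats 3, 9 and 13, and Hcn4. Bcas1, with 2 counts over the 6 untreated rats, was at 1.8, 1.65 and 0.639 TPM in rats 3, 9 and 13 and at most 0.136 in the other 9. Hcn4, a pacemaker channel, had 58 counts over the untreated rats and 10 over the i.v. ASC rats, and its TPM was 0.129 to 0.322 and 0 to 0.0961, with no overlap (log2 fold change -2.43, adjusted p = 0.0269 from DESeq2).

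Several of the higher genes among the remaining ones were high in rats 9 and 13 and less so in rat 3. Slc14a2 encodes the urea transporter of the inner medullary collecting duct. Its TPM was 29.6 in rat 9, 20.4 in rat 13, 0.851 in rat 3 and 0.107 to 0.359 in rats 8, 10 and 14, against 0.0386 to 0.191 in untreated rats. The log2 fold change was 6.40 (SE 1.84, adjusted p = 0.521 from edgeR, 0.00404 from DESeq2), and it was 5.16 without rat 9 and 0.71 without rats 3, 9 and 13. Single rats outside the comparison reached 8.56 TPM in the i.p. ASC and 20.4 TPM in the ASC-derived CM group. Slc14a2 differs in this from Upk3a, which was at most 0.478 TPM in those 10 rats.

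Lypd2 was at 190 TPM in rat 9, 36.5 in rat 13 and 8.02 to 17 in the other i.v. ASC rats, with 5.33 to 15.7 in untreated rats (log2 fold change 2.42, SE 0.62, adjusted p = 0.393 from edgeR, 0.0135 from DESeq2), and the fold change fell to 0.985 without rat 9. Wnt4, a signalling protein made in kidney tubule development and in the medulla, was at 14.9, 7.67 and 4.02 TPM in rats 9, 13 and 3, at 1.17 to 2.67 in rats 8, 10 and 14 and at 0.784 to 1.78 in untreated rats (log2 fold change 2.17, SE 0.50, adjusted p = 0.267 from edgeR, 0.00927 from DESeq2), with 1.52 without rat 9. Thrsp, a factor of lipid synthesis, was at 10.4, 9.27 and 5.21 TPM in rats 9, 13 and 3 and at 1.14 to 1.97 in rats 8, 10 and 14, with 0.535 to 1.51 in untreated rats. Plet1, a surface protein of epithelial cells, had its highest values in rats 9 and 13 too, with 176 and 94.6 TPM. Rat 9 was thus the highest of the 12 rats for all these genes.

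Some collecting duct genes were also highest in rats 9 and 13. Of the 13 tested markers of principal cells, 8 were higher and 4 had a p-value below 0.05, all higher, with a median log2 fold change of 0.08. These 4 were Aqp2, Aqp3, Fxyd4 and Elf5. Aqp2, the water channel under control of vasopressin, was at 1580 and 1500 TPM in rats 9 and 13, at 717 to 828 in rats 3, 8, 10 and 14 and at 558 to 1170 in untreated rats (log2 fold change 0.54, SE 0.24, adjusted p = 0.523 from edgeR). Fxyd4, a regulator of the sodium pump in the collecting duct, was at 198 and 124 TPM in rats 9 and 13, and at 36.8 to 52.1 in the others, with 25.3 to 68.7 in untreated rats. Elf5, an ETS factor of principal cells that also followed Upk3a, was at 8.3 and 6.27 TPM in these rats and at most 1.71 in the other 10. With rats 3, 9 and 13 left out, 6 of the 13 markers were higher and 0 had a p-value below 0.05 by edgeR. Aqp4, the water channel on the inner side of principal cells, had a log2 fold change of 0.68 in all rats and of -0.28 without these 3. Under TPM scaling 6 of the 13 markers were higher, and 8 relative to the median of all genes.

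A few of the remaining higher genes did not follow this order. Tnni2, a troponin of fast muscle, was at 9.81, 8.12, 17.2 and 6.96 TPM in rats 3, 8, 9 and 10, at 4.7 and 3.8 in rats 13 and 14, and at 2.82 to 4.62 in untreated rats (log2 fold change 1.40, SE 0.34, adjusted p = 0.329 from edgeR, 0.044 from DESeq2). Bnipl was at 2.78 to 5.13 TPM in i.v. ASC rats, with 3.91 in rat 14, and at 1.88 to 3.15 in untreated rats. Its log2 fold change was 0.78 (SE 0.21, adjusted p = 0.464 from edgeR), and 0.54 without rats 3, 9 and 13. Actg2, the gamma actin of visceral smooth muscle, was at 43.7 TPM in rat 3 and 12.7 in rat 10, at 0.967 to 4.52 in the rest of the group and at 0.813 to 4.89 in untreated rats (log2 fold change 2.43, SE 0.89, adjusted p = 0.523 from edgeR), with 1.175 without rat 3. Of the 12 tested smooth muscle markers 5 were higher, with a median of -0.09. Vwf, the clotting factor carrier of the endothelium, was at 6.67 TPM in rat 3, 1.14 to 3.04 in the rest of the group and 1.31 to 1.55 in untreated rats, whereas 13 of the 14 tested endothelial markers were lower, with a median of -0.33. For Actg2 and Vwf, but not for Tnni2 or Bnipl, rat 3 was the highest of the 12 rats.

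**Figure D3:**
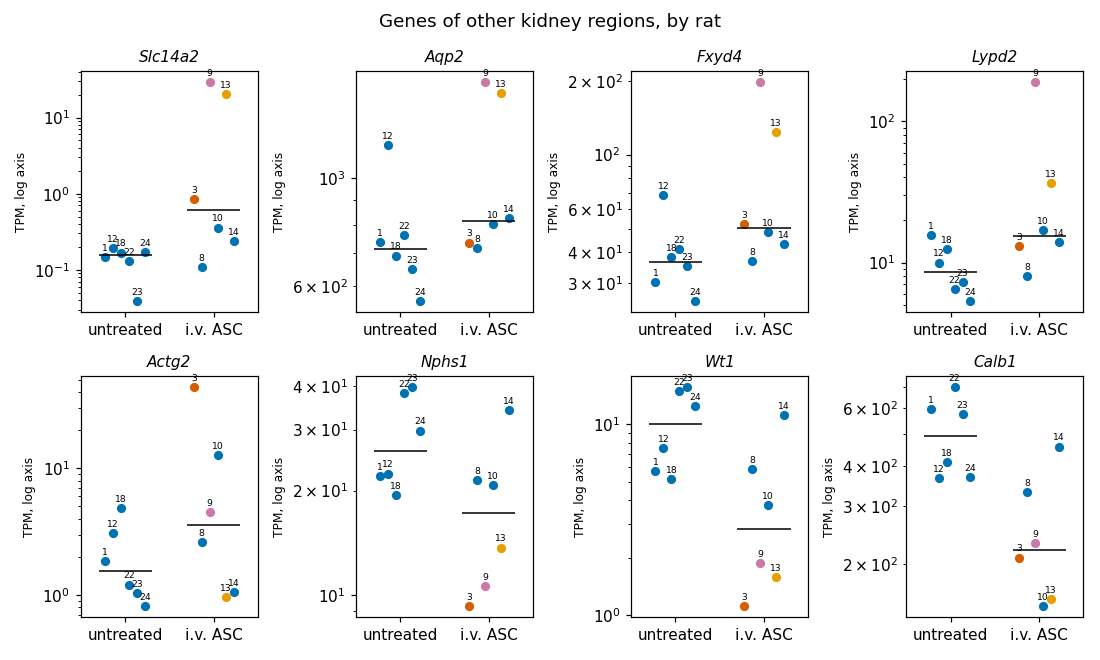
TPM (log axis) of 8 genes of other kidney regions, with 1 point per rat labelled by its number (rats 3, 9 and 13 in orange, pink and yellow, the others in blue) and a line at the median of each group of 6. Rats 9 and 13 are highest for Slc14a2, Aqp2, Fxyd4 and Lypd2, rat 3 for Actg2, and rats 3, 9 and 13 are lowest for Nphs1 and Wt1 among the i.v. ASC rats. For Calb1 rats 3, 9, 10 and 13 lie at 148 to 232 TPM, below all untreated rats.

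Podocyte genes were low in the rats that were high for Upk3a. All 11 tested markers of podocytes, the cells of the glomerular filter, had negative log2 fold changes, with a median of -0.61, and 3 had a p-value below 0.05. Wt1, a transcription factor of podocytes, was at 1.11, 1.87 and 1.59 TPM in rats 3, 9 and 13 and at 3.78 to 11.2 in the other i.v. ASC rats, with 5.17 to 15.7 in untreated rats (log2 fold change -1.20, SE 0.57, adjusted p = 0.523 from edgeR). Nphs1, which encodes nephrin, was at 9.27, 10.6 and 13.7 TPM against 20.8 to 34.1 in rats 8, 10 and 14 and 19.4 to 39.8 in untreated rats. With the 3 rats left out 1 of the 11 markers was higher and the median was -0.19, with 0 p-values below 0.05, and with Upk3a in the fit it was -0.26. The log2 fold changes of the 11 markers in i.p. ASC rats against the same untreated rats were also all negative, with a median of -0.34. The mean log2 CPM of the list was 4.26, 4.44 and 4.68 in rats 3, 9 and 13. It was 4.23 and 4.45 in ASC-derived CM rats 2 and 11, where Upk3a was at 0.434 and 0.138 TPM. In ASC-derived CM rats 19 and 21 it was 5.54 and 6.21. Low podocyte levels were thus not limited to rats high for Upk3a.

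Calb1, the calcium buffer of the distal tubule, was at 148 to 232 TPM in rats 3, 9, 10 and 13, at 333 in rat 8 and 458 in rat 14, and at 366 to 698 in untreated rats (log2 fold change -0.87, SE 0.32, adjusted p = 0.523 from edgeR). Of the 16 tested genes of the thick ascending limb and distal tubule 12 were lower, with a median of -0.12, and of the 13 intercalated cell genes 7, with a median of -0.03. Among the cortical genes, those of the proximal tubule did not share a direction.

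Of the 25 proximal tubule markers, 18 were higher, with a median log2 fold change of 0.48, yet the 3 with a p-value below 0.05 were all lower. Slc34a1, the phosphate transporter, ran from 227 to 1160 TPM in untreated rats and from 389 to 1400 in i.v. ASC rats, with medians of 691 and 617 (log2 fold change 0.23, SE 0.40, adjusted p = 0.823 from edgeR). Lrp2, which encodes the uptake receptor megalin, was highest in rat 3 at 162 TPM, then in rat 9 at 102 and in rat 10 at 91.2, with 45.3 to 86.0 in untreated rats. Cubn, which encodes cubilin, the partner of megalin, had a log2 fold change of 0.13. The 3 lower genes were the bicarbonate transporter Slc4a4, the lactate transporter Slc5a12 and the glucose transporter Slc5a2. Slc5a12 was at 5.09 to 21.1 TPM in 5 rats of the group and at 29.1 in rat 14, with 11.1 to 46.9 in untreated rats (log2 fold change -1.17, SE 0.43, adjusted p = 0.523 from edgeR). With Upk3a in the fit 3 of the 25 markers were higher, and with rats 3, 9 and 13 left out 13 were.

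The lower genes among the remaining ones had another order of rats. Over the 643 lower genes with a p-value below 0.05, rats 3, 8, 9, 10 and 13 were below the untreated mean for 92.7% to 99.5% of the genes and rat 14 for 75.6%. The median difference of rat 14 from the untreated mean was -0.09 on the log2 scale, against -0.29 to -0.45 in the other 5 rats. For the 449 higher genes rat 14 was above the untreated mean in 52.1% and the other 5 rats in 79.5% to 99.8%. These genes were chosen by the same rats, so the shares describe how the rats contribute and test nothing. The i.v. ASC rats carry the numbers 3 to 14 and untreated rats 18, 22, 23 and 24 higher ones. Group and animal number can thus not be fully told apart. Tia1 was 8.76 to 12.1 TPM in i.p. ASC rats 5, 6 and 7 and 13.9 to 16.6 in rats 15, 16 and 17. In ASC-derived CM rats it was 11.7 in rat 2 and 16.4 to 17 in rats 11, 19 and 21. With the animal number in the fit 388 genes had a p-value below 0.05 (edgeR), in place of 1133.

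Tia1, an RNA-binding protein of stress granules, was at 10 to 11.6 TPM in 5 rats of the group and at 15.3 in rat 14, with 14 to 21.3 and a median of 16.7 in untreated rats (log2 fold change -0.47, SE 0.10, adjusted p = 0.212 from edgeR, 0.0106 from DESeq2). Without rat 14 its adjusted p-value from edgeR was 0.0498, with a log2 fold change of -0.53. Lama1, the laminin alpha 1 chain of the tubular basement membrane, was at 1.44 to 3.31 TPM against 2.91 to 4.76 in untreated rats, with medians of 2.55 and 4.13, and the TPM ranges overlapped (log2 fold change -0.55, SE 0.13, adjusted p = 0.329 from edgeR, 0.044 from DESeq2). Magee1 was at 0.649 to 1.24 TPM in 5 rats of the group and at 1.56 in rat 14, with 1.34 to 1.96 in untreated rats (log2 fold change -0.71, SE 0.17, adjusted p = 0.329 from edgeR, 0.0454 from DESeq2). The fold changes of these 3 genes were -0.38, -0.48 and -0.65 with rats 3, 9 and 13 left out, and -0.36, -0.41 and -0.58 with Upk3a in the fit. They were smaller in size in both fits and kept their sign, but both fits use rats by which the 3 genes were chosen.

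Adrb1, the beta 1 adrenergic receptor, lay between 3.87 and 4.08 TPM in 5 rats of the group and at 5.89 in rat 14, with 5.24 to 8.31 in untreated rats (log2 fold change -0.56, SE 0.14, adjusted p = 0.341 from edgeR). Pkd2, which encodes polycystin 2, the channel affected in a form of human polycystic kidney disease, was at 29.1 to 33.4 TPM in 5 rats of the group and at 41.5 in rat 14, with 33.5 to 46.9 in untreated rats. Its log2 fold change was -0.18 (SE 0.05, adjusted p = 0.464 from edgeR). Casp12, a caspase of the endoplasmic reticulum, Cxadr, an adhesion protein of tight junctions, and Plekhh2, a podocyte protein, had log2 fold changes of -0.59, -0.48 and -0.72 with adjusted p-values of 0.341, 0.404 and 0.472 (edgeR). In all 5 of these genes rat 14 had the highest value of the i.v. ASC rats and lay within the untreated range.

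**Figure D4:**
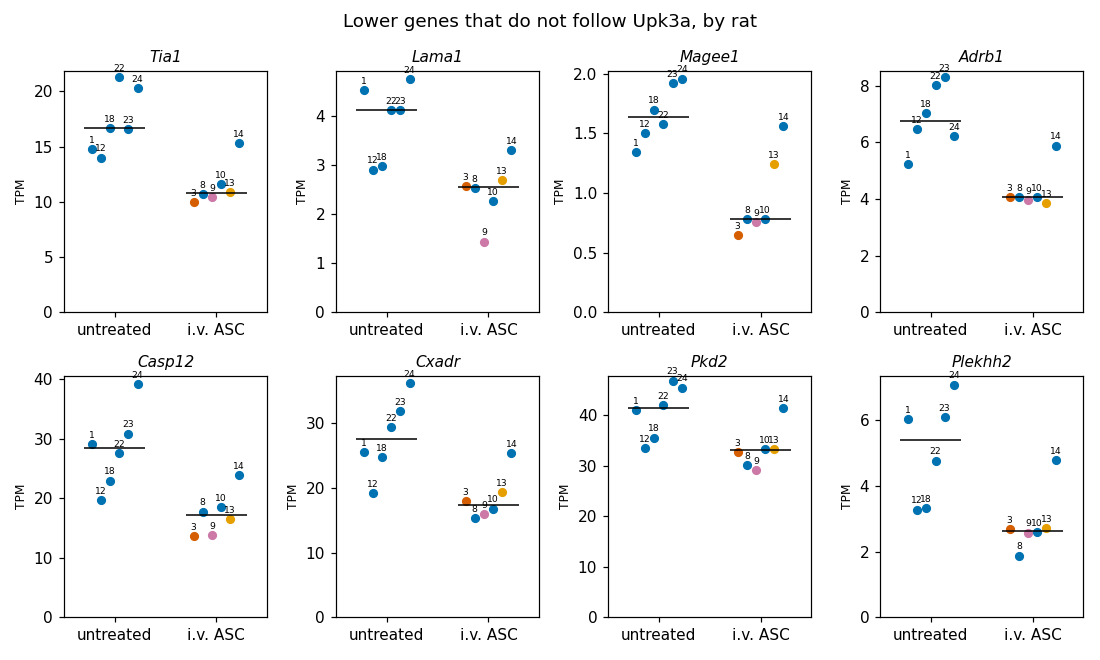
TPM of the 8 lower genes with the smallest p-values among those that do not follow Upk3a, with 1 point per rat labelled by its number (rats 3, 9 and 13 in orange, pink and yellow, the others in blue) and a line at the median of each group of 6. Rat 14 is the highest i.v. ASC rat in each panel, at 15.3 TPM for Tia1 and 41.5 TPM for Pkd2.

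The groups did not overlap on the log2 CPM scale for 3 higher genes (0.0233% of the genes tested) and 20 lower genes (0.155%), none of which followed Upk3a. On this scale counts are divided by library totals corrected with the TMM factors of edgeR, so it can differ from TPM. Whether more genes were separated than chance alone gives was not tested, so separation by itself supports nothing for a gene. The 3 higher ones, named after their values were seen, were Sod2, the superoxide dismutase of mitochondria, Pop4, a subunit of ribonuclease P, and Smpdl3b, a sphingomyelinase-like membrane protein. Their log2 fold changes were 0.25, 0.20 and 0.40, and each had an adjusted p-value of 0.523 (edgeR). The lower ones included Lama1 and Id2 of the naming rule, whose TPM ranges did overlap. Also among them, and named after their values were seen, were Edn1, which encodes endothelin 1, with a log2 fold change of -0.67 (adjusted p = 0.504 from edgeR), Tmem237, of the ciliary transition zone, with -0.22, and Mlana, with -1.23.

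Genes of cystic disease and of the inversin compartment, the part of the cilium where the product of Anks6 resides, were mostly lower. Of 19 tested, 14 were lower and 5 had a p-value below 0.05, all lower, with a median log2 fold change of -0.09, and under TPM scaling 1 was higher, or 5 relative to the median of all genes. Bicc1, an RNA-binding protein that is a partner of the product of Anks6, was at 31.9 to 44.7 TPM in 5 i.v. ASC rats and 68.5 in rat 14, with 39.0 to 82.3 in untreated rats (log2 fold change -0.39, SE 0.15, adjusted p = 0.523 from edgeR). With rats 3, 9 and 13 left out 2 of the 19 were higher, with a median of -0.16.

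Signalling lists leaned the same way. Of the 26 tested genes of TGF-beta signalling 23 were lower and 6 had a p-value below 0.05, all lower, with a median of -0.24. Id2, a target of this pathway that blocks basic helix-loop-helix factors, was at 257 to 369 TPM in i.v. ASC rats and at 359 to 424 in untreated rats, with medians of 278 and 391 (log2 fold change -0.30, SE 0.09, adjusted p = 0.521 from edgeR). Smad4, the common mediator of the pathway, had a log2 fold change of -0.16 (SE 0.06, adjusted p = 0.523 from edgeR). Of the 31 tested cAMP genes 24 were lower and 4 had a p-value below 0.05, all lower, with a median of -0.12. Pde4d and Pde4a, phosphodiesterases that break down cAMP, were among them, with log2 fold changes of -0.61 and -0.36. Without rats 3, 9 and 13 the medians were -0.06 for TGF-beta signalling and -0.04 for cAMP.

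Of the 25 tested genes of the basement membrane and its receptors 20 were lower, with a median of -0.14, 2 p-values below 0.05 among the higher genes and 3 among the lower. The fibroblast and matrix list had 11 of 18 genes lower and a median of -0.13, the interferon response list 20 of 22 and -0.16, the macrophage list 11 of 16 and -0.05, and the apoptosis list 16 of 26 and -0.06. The lymphocyte list had 14 of 20 genes higher and a median of 0.07, with 5 higher under TPM scaling (12 relative to the median of all genes), and the complement list 13 of 21 and 0.01, with 4 (8 relative to the median). Rat 3 had the lowest mean log2 CPM of the i.v. ASC rats for the macrophage and lymphocyte lists, 3.6 and 1.72, where the untreated rats lay between 4.95 and 5.36 and between 2.86 and 3.43. With rats 3, 9 and 13 left out all 16 macrophage genes and all 20 lymphocyte genes were higher than in untreated rats, with medians of 0.30 and 0.45 and with 0 and 4 p-values below 0.05 by edgeR. The fibroblast and matrix list then had 15 of 18 genes higher, with a median of 0.19, and the apoptosis list 18 of 26, with 0.06. Of the other lists, 11 of the 22 interferon response genes were higher, with a median of -0.005, and 7 of the 14 endothelial markers were higher, with a median near 0. The direction of the macrophage, fibroblast and apoptosis lists thus turned when these 3 rats were left out.

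The respiratory chain was higher gene by gene. All 34 tested genes of complex I and all 39 of complexes II to V had positive log2 fold changes, with medians of 0.23 and 0.21, and 2 and 3 of them had a p-value below 0.05. Under TPM scaling 32 and 37 were higher, and relative to the median of all genes 34 and 39. The mean log2 CPM of complex I was 6.64 to 7.1 in untreated rats, with a median of 6.91, and 6.74 to 7.33 in i.v. ASC rats, with a median of 7.15. The groups overlapped, with rat 9 and rat 3 highest at 7.33 and 7.31 and rat 14 lowest at 6.74. Ndufb9, an accessory subunit of complex I, was at 475 to 626 TPM in i.v. ASC rats and at 405 to 561 in untreated rats (log2 fold change 0.28, SE 0.13, adjusted p = 0.523 from edgeR). Without rats 3, 9 and 13 the medians were 0.10 and 0.10, with 32 of 34 and 34 of 39 genes higher, and in i.p. ASC rats against the same untreated rats they were 0.20 and 0.19.

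Of the 24 fatty acid oxidation genes 23 were higher, with a median of 0.23 and 1 p-value below 0.05, that of Etfb, which passes electrons from this pathway to the respiratory chain (log2 fold change 0.32, SE 0.15, adjusted p = 0.523 from edgeR). Of the 20 glycolysis genes 17 were higher, with a median of 0.12, though 10 were under TPM scaling (17 relative to the median of all genes). In this list Ldha, lactate dehydrogenase A, had a log2 fold change of 0.22 (SE 0.07, adjusted p = 0.523 from edgeR), and Pklr, the pyruvate kinase of liver and proximal tubule, was highest in rat 3 at 72.7 TPM, with 13.1 to 30.1 in untreated rats. The citrate cycle had 21 of 26 genes higher and a median of 0.10, with 10 higher under TPM scaling (21 relative to the median), and gluconeogenesis 6 of 8 and 0.10, with 3 (6 relative to the median). With Upk3a in the fit the medians were 0.00 for fatty acid oxidation, 0.04 for glycolysis, -0.07 for the citrate cycle and -0.11 for gluconeogenesis. Mean values of the citrate cycle, fatty acid oxidation and gluconeogenesis lists were highest in rat 3 of the 12 rats, as for the proximal tubule markers, whose mean log2 CPM in rat 3 was 9.01 against 6.78 to 8.2 in untreated rats. The part of tubule content in these lists was not tested.

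Cell division had 9 of 23 genes higher and a median of -0.04, NF-kB and TNF 8 of 19 and -0.04, and tubular injury 12 of 19 and 0.02, with 3 higher under TPM scaling (8 relative to the median of all genes). Without rats 3, 9 and 13, 19 of the 23 cell division genes were higher, with a median of 0.075. Of the 19 NF-kB and TNF genes 15 were, with 0.094, and of the 19 tubular injury genes 13, with 0.112. With Upk3a in the fit the counts of higher genes were 21, 15 and 13. The adipocyte and blood lists were farther from the median of all genes, with 6 of 8 genes higher and 0.26 for the former and 1 of 7 and -1.02 for the latter, where untreated rat 23 was highest with a mean log2 CPM of 6.82 and the other 5 untreated rats lay at or below 4.64. Among the injury genes Prom1, a marker of regenerating tubule cells, was at 112, 101, 70.8 and 61.7 TPM in rats 3, 9, 10 and 13, at 28.1 and 30.8 in rats 8 and 14, and at 27.8 to 51.0 in untreated rats (log2 fold change 1.04, SE 0.43, adjusted p = 0.523 from edgeR). Cdh6, a cadherin of proximal tubule precursors, was at 8.96 to 19.6 TPM against 10.8 to 30.2 (log2 fold change -0.66, SE 0.20, adjusted p = 0.523 from edgeR).

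**Figure D5:**
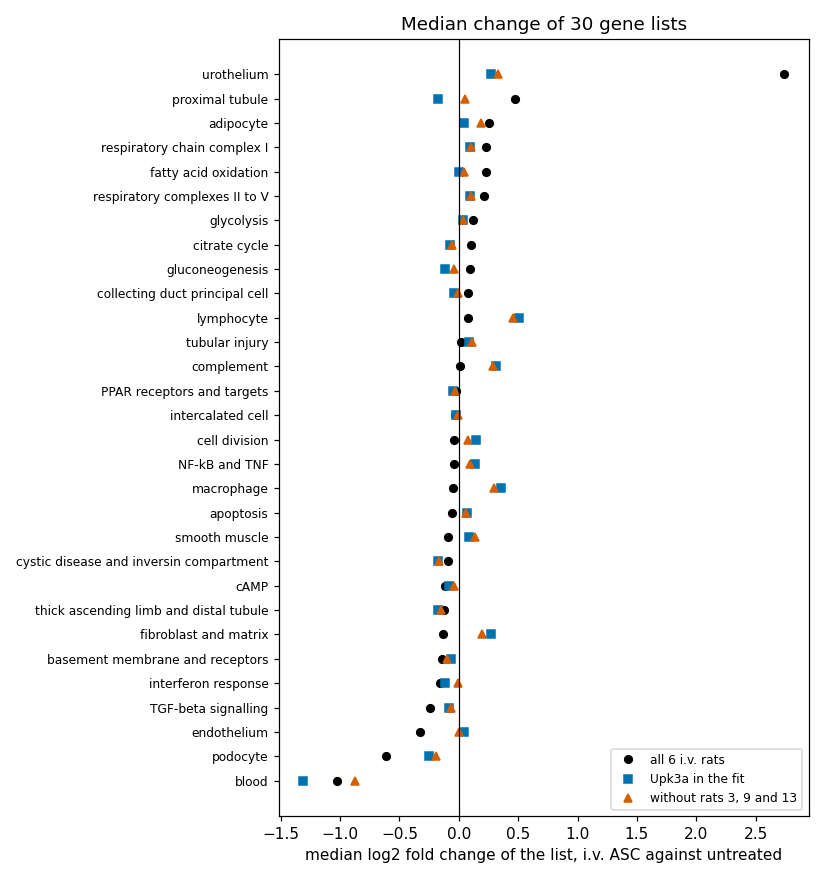
Median log2 fold change of i.v. ASC over untreated for each of 30 gene lists, with all 6 i.v. ASC rats (circles), with Upk3a in the fit (squares) and without rats 3, 9 and 13 (triangles). The urothelium list falls from 2.74 to 0.27 and 0.33, and the podocyte list moves from -0.61 to -0.26 and -0.19.

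With Upk3a as a covariate, edgeR called 0 genes (smallest adjusted p-value 0.943), and 453 genes (3.52%) had a p-value below 0.05, 166 higher and 287 lower. Of the 1092 remaining genes with a p-value below 0.05, 171 kept a p-value below 0.05 and their sign in that fit. Without rats 3, 9 and 13, 1081 of the 1092 had the same sign and 164 also a p-value below 0.05, with 381 such genes in all. This fit holds 3 i.v. ASC rats in place of 6. The 1092 genes were chosen by rats that both fits use. Their kept signs and p-values are thus partly fixed in advance and support nothing.

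The route of injection was compared on the same genes. Between i.v. and i.p. ASC rats edgeR called 0 genes (smallest adjusted p-value 0.0975), and 281 (2.18%) had a p-value below 0.05, while DESeq2 called 24. For Upk3a the log2 fold change of i.v. over i.p. ASC was 7.14 (adjusted p = 0.0975 from edgeR), for Krt5 5.59 (adjusted p = 0.0975) and for Upk1b 3.98 (adjusted p = 0.0975). For Tia1, Lama1 and Magee1 it was -0.14, -0.16 and -0.14, each with an adjusted p-value of 1 (edgeR), so that for these genes no difference between the routes was detectable.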

How the data were processed

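RNA of the left kidney of 22 rats was sequenced by the authors on the BGISEQ-500 platform, and 2 kinds of file were deposited for each rat. One holds the estimated count of every rat Entrez gene, left unnormalized by the authors. The other holds TPM values, scaled by the authors for transcript length and library total. The submitters' processing notes name Trim Galore 0.6.4, kallisto 0.4.6 and the build rn6, and whether counting used strand is not given in the sources used here, so antisense, overlapping and paralogous genes are uncertain. Of 17334 genes, 17179 were paired with a symbol through the RefSeq table of GRCr8. Counts were rounded, since 14.1% were not whole. No pair of rats had identical values. Groups came from the treatment label.

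Genes were tested with edgeR 4.0.16 (R 4.3.3, filterByExpr, TMM, quasi-likelihood F test, all 4 groups in 1 fit) with Benjamini-Hochberg adjustment at 0.05. Alternatives tried were DESeq2 1.42.0 in place of edgeR, RLE size factors, other count filters, only the 2 groups, limma-trend (limma 3.58.1) on log2(TPM + 1), Upk3a, proximal tubule markers, the animal number or 1 surrogate variable (sva 3.50.0) as covariate, and the omission of each rat. The omission of the 3 or 5 rats high for Upk3a was chosen after seeing the data. Both the count test and the correlation rule were tested on simulated data. Named were Upk3a, Anks6, the 8 genes with the smallest p-value among those that follow Upk3a and the 8 higher and 8 lower among the rest, all genes called by DESeq2, and from a list the 2 members with the smallest p-value, or for marker lists also the first 3. The members, the lists and the limit of 0.7 were chosen with earlier results of these data known. A few genes that this rule names are not reported here.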

Additional observations from a re-analysis of the deposited data

Results flagged for a closer look

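In groups of 6 rats, a value was singled out when its gap to the nearest rat was above Dixon's critical value for the range of the group, on log2(TPM + 1). Of 158 pairs of a named gene and a group 8 were singled out, and chance gives about 1 in 20, so the number is near that of chance. In untreated rat 23, Upk3a and genes chosen for following it were highest, with Upk3a at 3.3 TPM (next rat 0.447), Upk2 at 2.53 (0.528), Krt5 at 2.06 (0.612) and Sptssb at 0.488 (0.143). These flags are thus not independent of each other. In i.v. ASC rat 14, 3 of the lower genes were highest, with Tia1 at 15.3 TPM (next rat 11.6), Adrb1 at 5.89 (4.08) and Plekhh2 at 4.78 (2.73). In i.v. ASC rat 9, Lipe, the hormone-sensitive lipase of fat cells, was lowest at 2.48 TPM (next rat 5.75).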

How the results depend on the processing

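The count of genes called by edgeR in i.v. ASC against untreated was 0, by DESeq2 28, and between 0 and 14 when 1 rat was left out. It was 14 without rat 14, of which 13 follow Upk3a and Tia1 does not, and 11 without rat 8, all of which follow. Genes at a p-value below 0.05 before adjustment numbered 453 with Upk3a, 388 with the animal number and 655 with 1 surrogate variable in the fit, 381 without rats 3, 9 and 13 and 192 without the 5 rats above 1 TPM of Upk3a, and from 646 (without rat 9) to 2255 (without rat 14) with 1 rat left out. Leaving out untreated rat 22, 23 or 24 gave 731, 656 or 724. Of these genes 43.2% were higher, 48.1% with RLE size factors, 55.4% with only the 2 groups in the fit and 9.12% on the TPM scale. Genes following Upk3a numbered 94 at a correlation of at least 0.6, 24 at 0.8, 13 with Spearman's correlation, 20 with a pseudocount of 0.1, 11 without rats 3, 9 and 13 (8 of them shared with the 45), and 31 to 63 with 1 rat left out. Over the 10 rats given i.p. ASC or ASC-derived CM 30 genes followed, of which 1 was shared, Upk3a itself. All these counts include Upk3a, which follows itself in every setting. Between i.v. and i.p. ASC DESeq2 called 24 genes.

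Signs of log2 fold changes were compared over the settings only for genes chosen by the naming rule and tested by edgeR. The signs that turned were those of Anks6 and Cubn on the TPM scale (-0.084 and -0.061, with a pseudocount of 0.1 -0.088 and -0.064). With Upk3a in the fit they were Anks6 -0.181, Vsig2 -0.674, Slc34a1 -0.358, Lrp2 -0.218, Cubn -0.321, Aqp4 -0.213 and Pklr -0.001. With proximal tubule markers in the fit they were Anks6 -0.072, Slc34a1 -0.153 and Cubn -0.162, with the animal number Anks6 -0.071 and Cubn -0.134, and with 1 surrogate variable Anks6 -0.135, Slc34a1 -0.325, Lrp2 -0.201, Cubn -0.306 and Pklr -0.047. Without rats 3, 9 and 13 they were Anks6 -0.13, Vsig2 -0.381, Slc34a1 -0.191, Lrp2 -0.045, Cubn -0.199 and Aqp4 -0.284. Other genes following Upk3a, outside the naming rule, turned as well. Among them, Grhl3 (2.475 in the main fit) and Foxa1 (2.116) were at -1.185 and -0.164 with Upk3a in the fit. Without these 3 rats Grhl3 and Foxa1 were at -0.749 and -0.113. With 1 rat left out Anks6 ran from -0.109 to 0.103, Slc34a1 from -0.094 to 0.447 and Cubn from -0.14 to 0.227. The cause was not tested. No paired analysis was possible because the groups share no animal number. Genes with few counts in untreated rats limit the precision of the largest fold changes.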
